A study of Mus musculus with 6 samples.

Results

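The genes described here are 54 genes of the G1/S transition and of DNA replication in the mouse. They were chosen by name, as the rows of the deposited table whose symbol equals one of 54 given symbols. The rule reads symbols and no measured value, but the list itself was drawn up with earlier results of these data known. All 54 were found, with 1 row each, among 54232 genes. Their RNA was measured by mRNA sequencing in cultures that the labels call female germ line stem cells, a mitotic germ cell type reported from the ovary. In 3 libraries the cultures had received C89, for which the labels give a code name and no structure, and the 3 control libraries are labelled DMSO, a common solvent. RNA was taken at 8 h, and the labels give no dose, strain, age or allele. They also do not say whether the libraries of a group came from separate cultures, so the p-values speak of the spread among the 6 libraries, which may be technical.

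Cells commit to a round of DNA synthesis when D-type cyclins with Cdk4 or Cdk6, and then cyclin E with Cdk2, phosphorylate the retinoblastoma family of pocket proteins. This frees the E2F transcription factors, whose targets include cyclin E itself and most of the replication machinery. In G1 the origin recognition complex, Cdc6 and Cdt1 load the MCM helicase onto origins, which is called licensing. In S phase the kinase Cdc7 with its activator Dbf4, together with Cdk2, turns the loaded helicase on, and DNA polymerases, the sliding clamp PCNA and its loader RFC then copy the strands.

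Values below are normalized read counts, that is, reads per gene scaled by the size factor of the library. A log2 fold change is C89 over DMSO on the scale log2(normalized count + 1), and a gene was called when the limma p, adjusted by Benjamini-Hochberg over all 18954 genes tested, was under 0.05. Libraries held 7772060 to 21763459 reads assigned to genes. The second C89 library and the third differed beyond sampling noise in 0.686% of genes, against 25.8 to 48.7% for the other pairs within a group. They may therefore not be independent, and results are also given with that pair averaged where this changed a call. Germ cell markers were almost absent: of 8 listed genes Dazl, Dppa3 and Nanos3 had no read, and the 8 together reached 10.3 to 90.0 normalized counts per library. A list of 9 mast cell genes summed to 49439 to 59269 in DMSO and 83993 to 95206 in C89 libraries, with 4 of 5 tested genes higher. Of that sum 99.5 to 99.8% came from 3 genes, Kit, Gata2 and Cpa3. Kit gave the largest part, with means of 30384 in DMSO and 42170 in C89 libraries. The mast cell genes Ms4a2, Fcer1a, Tpsb2 and Mcpt4 were unread or nearly so, with no value above 1.27 in any library. The label is therefore kept only as the name of the cultures. A list of 8 fibroblast genes, with no read for Lum and 3 of 7 tested genes lower, summed to 1248, 2400 and 132 in the DMSO libraries and to 51.4, 83.3 and 130 in the C89 libraries. A list of 6 macrophage genes summed to 1801 to 2707 in DMSO and 3721 to 3988 in C89 libraries, with 1 of 5 tested genes, Adgre1, higher and Csf1r at 2.55 or less. The part of these other cell types in the results below was not tested. In bulk RNA, fewer cells in a phase and less RNA per cell cannot be told apart.

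C89 libraries held more RNA of both E-type cyclins, of Cdk6, of the clamp gene Pcna and of the ribonucleotide reductase gene Rrm2. They held less RNA of the licensing genes Cdc6 and Gmnn, of both subunits of the Cdc7-Dbf4 kinase, of the polymerase gene Pold1, of the clamp loader gene Rfc5 and of the chromatin assembly gene Chaf1a. Of the 54 genes, 8 rose and 15 fell, and 31 did not pass the test. This is 42.6% called, against 26.1% of all genes tested and 39.8% of the 8554 genes whose mean reached 200 normalized counts, a background chosen after the values were seen. As 53 of the 54 genes had such a mean, the share called was near that of genes read as deeply. Rises made up 14.8% of the set against 12.5% of all genes tested, and falls 27.8% against 13.6%. Among the better-read genes, with a mean of at least 200, the shares were 19.1% rises and 20.7% falls. Counts by role group and for other lists below are to be read beside these shares, as no list was tested as a set. Groups did not overlap in 26 of the 54 genes, or 48.1%, against 40.9% of all genes tested and 55.4% of those better-read genes. The median log2 fold change was -0.14, against -0.03 over all genes tested. Without the first C89 library these medians were -0.0 and -0.04.

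**Figure D1:**
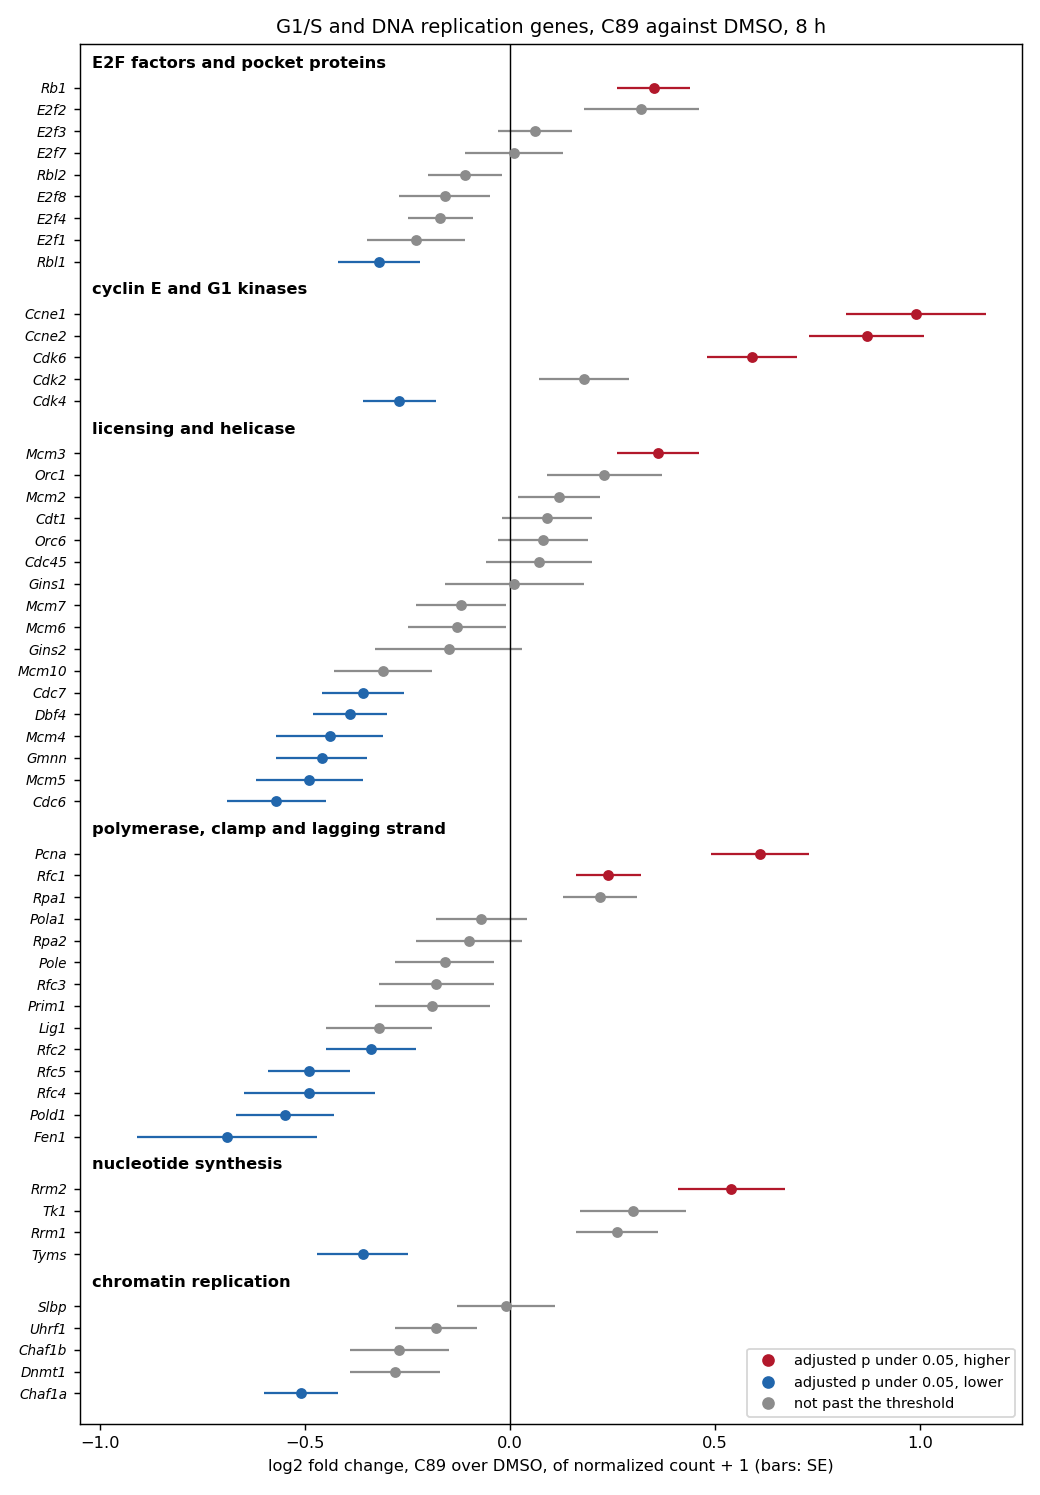
Log2 fold change (C89 over DMSO, of normalized count + 1) of each of the 54 genes by role, with the standard error as bars and 3 libraries a group. Changes run from -0.69 (Fen1) to 0.99 (Ccne1), and rises and falls occur side by side in all groups but the chromatin genes.

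Of the 23 calls, 10 held under each of 15 alternative settings: the rises of Ccne1, Ccne2, Cdk6 and Pcna, and the falls of Cdc6, Gmnn, Dbf4, Rfc5, Pold1 and Chaf1a. The count of Chaf1a is uncertain in all of these settings, as its exons overlap another gene (below). With the libraries scaled by total reads in place of the deposited size factors, there were 5 rises and 22 falls, and rises were 18.5% of the calls, not 34.8%. Over all genes the same choice gave 1511 rises and 4093 falls, 27.0% rises against 47.8%. The better-read genes then had a median of -0.16 where it had been -0.01, and changes under that scaling are to be read relative to this shift. There were 4 rises when the second C89 library was left out and 5 when it was averaged with the third. There were 7 falls when the third DMSO library was left out, 8 for the first C89 library, and 9 each for its 2 companions. The authors' deposited table gives an adjusted p under 0.05 to 23 of the 54 genes as well, 8 higher and 15 lower. It shares 22 of them with the limma calls, with Dnmt1 (deposited adjusted p = 0.0381) in place of Fen1 (0.0681).

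Promoter sequence was searched for letters that a part of these genes have in common. RefSeq promoters (GRCm38.p6, 250 bases before to 50 after the start) were at hand for 45 of the 54 genes. They were searched on both strands for the E2F letters TTTCGCGC, TTTGGCGC, TTTCCCGC and TTTGCCGC, which can overlap one another. A match was found for 18 of the 45 genes, or 40%, against 704 of 27025 genes, or 2.60%. By promoter, 18 of 55 held a match (32.7%), against 2.26% of 32851. By call, 1 of 6 genes that rose (Mcm3), 4 of 12 that fell and 13 of 27 that were not called had a match, counts too small for a comparison of directions. For comparison, a list of 25 G2 and M phase genes had E2F letters in 1 of 20 and the letters TTTGAA, the core of the CHR element of such genes, in 13 of 20, against 20.2% of all genes. TTTGAA was found in 10 of the 45 genes of this set. A list of 50 other G1/S and replication genes, described below, had E2F letters in 14 of 40 (35%) and TTTGAA in 8 of 40. A match is a description of letters, not a bound site. The following stretches of 60 bases, all upstream of the start, show E2F letters in genes that fell (Mcm5, Cdc6, Rbl1) or were not called (Mcm6, Orc1). Matches are in capitals. The match nearest the start begins 149 bases before it in Mcm5, 138 in Cdc6, 18 in Rbl1, 47 in Mcm6 and 27 in Orc1. Not every stretch therefore reaches the start. The stretches of Pcna and Ccne1, which rose, are the 60 bases next to the start and hold no match. The matches of Mcm3, which also rose, lie after the start and so are not shown. In Mcm5 a match on each strand overlap in 1 run, and of 3 matches in Mcm6 the nearest to the start is shown.

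Mcm5 (fell; chr8:75109334-75109393, plus strand): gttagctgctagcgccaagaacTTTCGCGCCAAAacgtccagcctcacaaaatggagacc
Cdc6 (fell; chr11:98907987-98908046, plus strand): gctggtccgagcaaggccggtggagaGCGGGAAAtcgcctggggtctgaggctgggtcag
Rbl1 (fell; chr2:157204535-157204594, minus strand): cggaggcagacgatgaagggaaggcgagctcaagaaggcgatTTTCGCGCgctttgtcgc
Mcm6 (not called; chr1:128359719-128359778, minus strand): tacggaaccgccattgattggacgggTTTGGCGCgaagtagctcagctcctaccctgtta
Orc1 (not called; chr4:108579394-108579453, plus strand): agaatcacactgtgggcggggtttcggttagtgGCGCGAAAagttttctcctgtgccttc
Pcna (rose; chr2:132253181-132253240, minus strand): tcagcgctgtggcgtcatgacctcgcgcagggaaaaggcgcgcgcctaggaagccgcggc
Ccne1 (rose; chr7:38107491-38107550, minus strand): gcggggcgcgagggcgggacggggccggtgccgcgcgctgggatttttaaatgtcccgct

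Cyclin E genes gave the largest rises of the set. Ccne1 (ENSMUSG00000002068), which encodes cyclin E1, read 662.8, 464.5 and 399.6 in the DMSO libraries and 794.5, 1095 and 1116 in the C89 libraries. All C89 values lay above all DMSO values, with the first DMSO library nearest to the C89 group. The mean went from 509 ± 137 to 1002 ± 180 (SD, n = 3 each), a 1.97-fold rise (log2 fold change 0.99, with SE 0.17 and limma adjusted p = 0.00149). Ccne2, for cyclin E2, read 834.2, 563.3 and 562.0 in DMSO and 1041, 1238 and 1259 in C89 libraries. It rose 1.81-fold without overlap (log2 fold change 0.87, with SE 0.14 and adjusted p = 0.00107). Leaving out any 1 library kept Ccne1 at log2 fold changes of 0.83 to 1.20 and Ccne2 at 0.78 to 1.06, each with an adjusted p under the threshold.

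The kinases moved apart from one another. Cdk6, a partner of D-type cyclins that is prominent in blood cells, read 1189, 1345 and 1186 in DMSO and 2212, 1673 and 1766 in C89 libraries. It rose 1.52-fold (log2 fold change 0.59, with SE 0.11 and adjusted p = 0.00211), and the first C89 library was the highest. Cdk4, the related kinase, read 5082, 4610.2 and 4951 in DMSO and 3650.1, 4331 and 4164 in C89 libraries. It fell to 0.829 of the DMSO mean (log2 fold change -0.27, with SE 0.09 and adjusted p = 0.0414). Groups did not overlap for either gene. The call of Cdk4 was lost when DMSO library 1 or 3 or any 1 C89 library was left out (adjusted p = 0.0681 to 0.12), with the similar C89 pair averaged (0.0809), without a filter on low values (0.0647) and with the replicate number as a block (0.103). Cdk2, the partner of cyclin E, read 1025, 856.6 and 1028 in DMSO and 953.1, 1228 and 1126 in C89 libraries, with overlapping groups (log2 fold change 0.18, with SE 0.11 and adjusted p = 0.268). Per kilobase of exon, mean normalized counts of Cdk4 were 1502 in DMSO and 1246 in C89 libraries, far above those of Ccne1 (191 and 376). In all, 3 of the 5 cyclin E and kinase genes rose and 1 fell, with a median log2 fold change of 0.59.

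**Figure D2:**
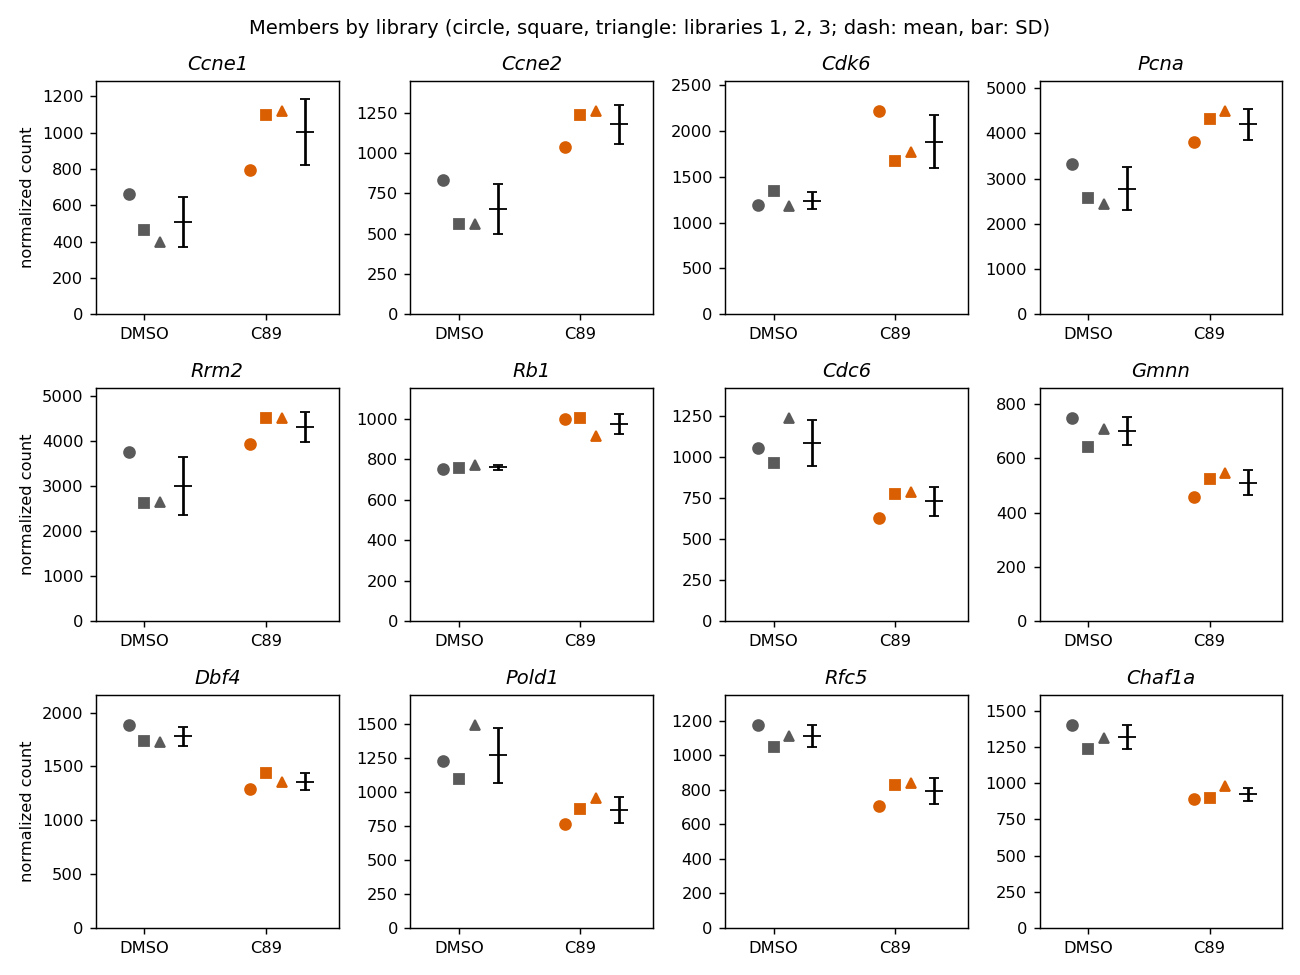
Normalized counts of 12 genes in each library (circle, square and triangle for libraries 1, 2 and 3 of a group; dash and bar for the mean and SD, n = 3). In each panel the C89 values lie all above (Ccne1, Ccne2, Cdk6, Pcna, Rrm2, Rb1) or all below (Cdc6, Gmnn, Dbf4, Pold1, Rfc5, Chaf1a) the DMSO values.

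Of the 9 genes of E2F factors and pocket proteins, 1 rose and 1 fell. Rb1, the retinoblastoma protein gene, read 749.5, 757.7 and 773.0 in DMSO and 1000, 1002 and 916.0 in C89 libraries. The rise was small and the DMSO libraries were tight (log2 fold change 0.35, with SE 0.09 and adjusted p = 0.011). Rbl1, for the pocket protein p107, read 830.9, 932.2 and 984.7 in DMSO and 745.8, 709.2 and 735.1 in C89 libraries (log2 fold change -0.32, with SE 0.10 and adjusted p = 0.0252). The groups did not overlap for Rb1 or Rbl1. The third pocket protein gene, Rbl2, had a log2 fold change of -0.11 (adjusted p = 0.454). The call of Rb1 was lost without the second C89 library (adjusted p = 0.0588) and with scaling by total reads (0.106). That of Rbl1 was lost when library 2 or 3 of either group was left out (0.0764 to 0.1), with the C89 pair averaged (0.0858) and with the replicate block (0.0581).

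None of the 6 E2F genes passed the test. E2f1, an activator, read 732.2, 647.8 and 748.3 in DMSO and 501.3, 646.2 and 674.0 in C89 libraries (log2 fold change -0.23, with SE 0.12 and adjusted p = 0.186). The groups overlapped, and the first C89 library was the lowest of all. The activator E2f2 went the other way, at 520.1, 484.4 and 624.9 in DMSO and 547.4, 772.2 and 728.7 in C89 libraries (log2 fold change 0.32, adjusted p = 0.11), and it passed without the first C89 library (adjusted p = 0.023). The activator E2f3 had a log2 fold change of 0.06 (SE 0.09). E2f4, which with pocket proteins represses targets in resting cells, did not overlap between groups but missed the threshold (log2 fold change -0.17, with SE 0.08 and adjusted p = 0.154). The repressors E2f7 and E2f8, themselves induced in S phase, were at 0.01 (SE 0.12) and -0.16 (SE 0.11). With scaling by total reads E2f1 and E2f4 were called lower (adjusted p = 0.0327 and 0.0103).

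Of 17 licensing and helicase genes, 1 rose and 6 fell, with a median log2 fold change of -0.13. Among the better-read genes 19.1% rose and 20.7% fell. Without the first C89 library 1 licensing and helicase gene rose and 4 fell, and their median was 0.0. Cdc6, which loads the MCM helicase, read 1057, 964.1 and 1237 in DMSO and 630.6, 774.3 and 786.1 in C89 libraries. It fell from 1086 ± 139 to 730 ± 86.5, to 0.672 of the DMSO mean (log2 fold change -0.57, with SE 0.12 and adjusted p = 0.00384). Gmnn, for geminin, the inhibitor of Cdt1, read 748.2, 643.8 and 710.1 in DMSO and 457.9, 524.3 and 547.8 in C89 libraries (log2 fold change -0.46, with SE 0.11 and adjusted p = 0.00752). Both were lower in every C89 library than in every DMSO library. Cdt1 itself read 1475, 1298 and 1509 in DMSO and 1291, 1673 and 1627 in C89 libraries, with overlap (log2 fold change 0.09, with SE 0.11 and adjusted p = 0.579). The origin recognition genes Orc1 and Orc6 had log2 fold changes of 0.23 (adjusted p = 0.253) and 0.08 (0.657), and Orc1 passed without the first DMSO library (0.0457).

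RNA of the kinase that fires licensed origins was lower for both subunits. Dbf4, the activating subunit, read 1885, 1735 and 1728 in DMSO and 1287, 1437 and 1356 in C89 libraries (log2 fold change -0.39, with SE 0.09 and adjusted p = 0.00552). Cdc7, the catalytic subunit, read 989.6, 1003 and 1134 in DMSO and 763.5, 863.7 and 805.2 in C89 libraries (log2 fold change -0.36, with SE 0.10 and adjusted p = 0.0149). Neither gene overlapped between groups, and Cdc7 missed the threshold only without the third C89 library (adjusted p = 0.0615) among the 15 alternatives. Genes of factors that join the helicase at firing did not pass: Cdc45 had a log2 fold change of 0.07, Gins1 of 0.01, Gins2 of -0.15 and Mcm10 of -0.31 (adjusted p = 0.0736). Mcm10 passed without the second DMSO library (0.0226) and with scaling by total reads (0.0106).

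The 6 subunits of the MCM ring, which act as 1 hexamer, did not move together. Mcm3 read 4221, 3594 and 3570.4 in DMSO and 4282, 5093 and 5218 in C89 libraries and rose (log2 fold change 0.36, with SE 0.10 and adjusted p = 0.0211). Mcm5 read 3518, 3139 and 4070.3 in DMSO and 2050, 2774 and 2872 in C89 libraries and fell (log2 fold change -0.49, with SE 0.13 and adjusted p = 0.0157). Mcm4 read 2223, 1861 and 2688 in DMSO and 1442, 1709 and 1799 in C89 libraries and fell (log2 fold change -0.44, with SE 0.13 and adjusted p = 0.0228). Groups did not overlap in these 3 genes, while they did in the other subunits. Mcm2 read 3314, 2861 and 3494 in DMSO and 3156, 3640 and 3713 in C89 libraries (log2 fold change 0.12, adjusted p = 0.405). Mcm6 read 4613, 3919 and 4874 in DMSO and 3389, 4335 and 4576 in C89 libraries (-0.13, adjusted p = 0.463). Mcm7 read 2079, 2031 and 2462 in DMSO and 1723, 2191 and 2154 in C89 libraries (-0.12, adjusted p = 0.476). In Mcm6 and Mcm7 the first C89 library lay below the DMSO range and the other C89 libraries lay within it. In Mcm2 the first C89 library lay within the DMSO range and the other C89 libraries lay above it. Calls in the ring were less firm than those of Cdc6, Gmnn and Dbf4. Mcm3 was lost when library 2 or 3 of either group was left out (adjusted p = 0.0638 to 0.115), with the C89 pair averaged (0.111), with the replicate block (0.0551) and with scaling by total reads (0.137). Mcm5 was lost without the third DMSO or the first C89 library (0.0652 and 0.0559), and Mcm4 when DMSO library 1 or 3 or C89 library 1 or 2 was left out (0.0559 to 0.0964) or with the C89 pair averaged (0.0557).

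Shares within a library do not depend on how libraries are scaled. Per kilobase of exon (GENCODE M21 lengths), Mcm3 made up 24.7, 24.1 and 19.7% of the summed MCM ring RNA in the DMSO libraries and 31.5, 30.3 and 30.2% in the C89 libraries. The share of Mcm5 was 19.3, 19.8 and 21.1% in DMSO and 14.2, 15.5 and 15.6% in C89 libraries. Mcm3 exceeded Mcm5 in every library but the third DMSO library. Mcm4 went from 14.1 ± 1.3% to 10.9 ± 0.22% and Mcm2 from 10.4 ± 0.047% to 11.9 ± 0.51% (SD, n = 3 each). For these 4 subunits the groups did not overlap, and the exact two-sided permutation test gave p = 0.1, the smallest that 3 against 3 libraries allow (0.15 adjusted over the 6 subunits). Mcm6 (21.5 and 20.7%, exact p = 0.2) and Mcm7 (11.1 and 10.8%, exact p = 0.4) overlapped.

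**Figure D3:**
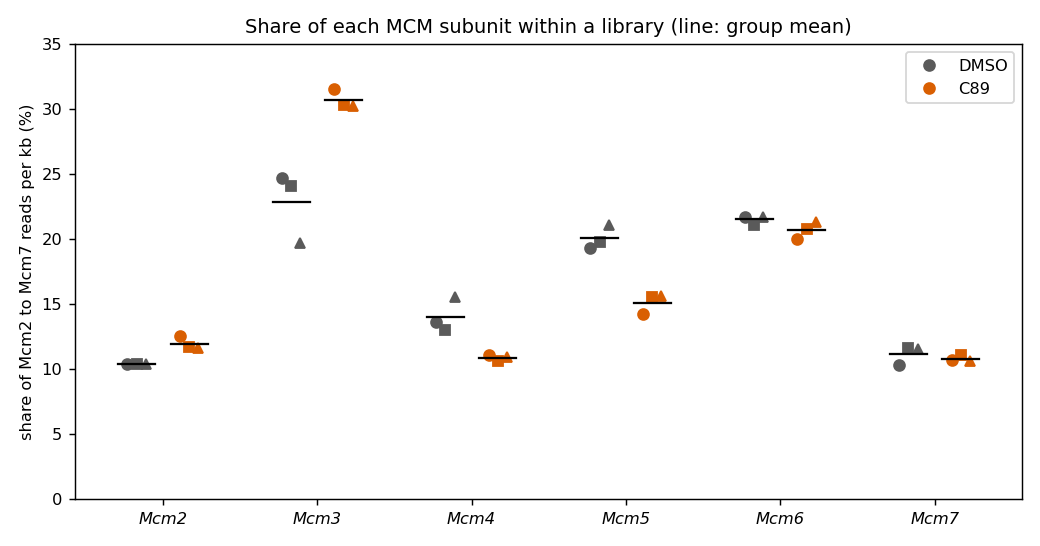
Share of each MCM subunit in the summed normalized counts per kilobase of Mcm2 to Mcm7, in percent, for each library (circle, square and triangle for libraries 1, 2 and 3; line for the group mean). Mcm3 takes 30.2 to 31.5% in C89 and 19.7 to 24.7% in DMSO libraries, while Mcm4 and Mcm5 take less in C89.

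Of 14 genes of polymerases, clamp, clamp loader and lagging strand processing, 2 rose and 5 fell, with a median log2 fold change of -0.18. The shares among the better-read genes were 19.1% rises and 20.7% falls. Without the first C89 library 2 of the 14 genes rose and 2 fell, and their median was -0.09. Pcna (ENSMUSG00000027342), the sliding clamp gene, read 3322, 2568 and 2441 in DMSO and 3815, 4308 and 4486 in C89 libraries. It rose 1.51-fold without overlap (log2 fold change 0.61, with SE 0.12 and adjusted p = 0.00235) and stayed at 0.52 to 0.74 without any 1 library. Pcna has pseudogenes in the annotation, and how reads shared with them were assigned is not given in the sources used here. Pold1, the catalytic subunit of polymerase delta, read 1225, 1092 and 1493 in DMSO and 766.2, 875.9 and 956.8 in C89 libraries (log2 fold change -0.55, with SE 0.12 and adjusted p = 0.00606). The catalytic genes of the other replicative polymerases did not pass, with log2 fold changes of -0.07 for Pola1 (adjusted p = 0.722) and -0.16 for Pole (0.347). Prim1, for the primase subunit, was at -0.19 (0.348).

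Clamp loader genes divided along the subunits. Rfc5 read 1176, 1049 and 1115 in DMSO and 706.8, 831.2 and 839.6 in C89 libraries (log2 fold change -0.49, with SE 0.10 and adjusted p = 0.00327). Rfc2 and Rfc4 also fell (log2 fold changes -0.34 and -0.49, adjusted p = 0.0339 and 0.0376), and Rfc3 did not pass (-0.18, 0.382). The large subunit gene Rfc1 rose slightly, from 3074, 2782 and 3036 in DMSO to 3436, 3479 and 3544 in C89 libraries (log2 fold change 0.24, with SE 0.08 and adjusted p = 0.0479). The call of Rfc1 was lost without any 1 library but the first DMSO library (adjusted p = 0.0542 to 0.175) and with total scaling (0.456), no low-value filter (0.0739), the block (0.124) or the C89 pair averaged (0.144). Rfc2 was lost without any 1 library but the second DMSO library (0.0518 to 0.113), with the block (0.0543) and with the C89 pair averaged (0.0569), and Rfc4 without any 1 library but the second C89 library (0.0513 to 0.119).

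Fen1, the flap endonuclease gene of lagging strand processing, had few reads for a gene of this set, at 79.4, 72.5 and 111 in DMSO and 48.7, 50.8 and 59.9 in C89 libraries. Its fall (log2 fold change -0.69, with SE 0.22 and adjusted p = 0.0343) was lost in 8 of the 15 alternatives, among them DESeq2 on recovered reads (0.0723), no low-value filter (0.0539), the C89 pair averaged (0.0656) and leaving out any 1 library but the second DMSO library (0.0531 to 0.13). In GENCODE M21, 84.2% of its exon bases are overlapped by genes on the opposite strand (Tmem258 and Gm10143), so its count is uncertain. The same holds for Gins2, with 67.3% under Gse1, and Chaf1a, with 52.5% under Ubxn6. Lig1, the ligase gene that seals Okazaki fragments, did not overlap between groups and missed the threshold (log2 fold change -0.32, adjusted p = 0.0942). The single-strand binding genes Rpa1 and Rpa2 had log2 fold changes of 0.22 (adjusted p = 0.107; 0.046 without the first C89 library) and -0.10 (0.633). With scaling by total reads Lig1 was called lower (0.0189).

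Among 4 genes of nucleotide synthesis, 1 rose and 1 fell. Rrm2, the cell cycle regulated subunit of ribonucleotide reductase, read 3746, 2621 and 2633 in DMSO and 3926, 4503 and 4500 in C89 libraries. It rose 1.44-fold, with the first DMSO library close to the C89 group (log2 fold change 0.54, with SE 0.13 and adjusted p = 0.00803). Tyms, for thymidylate synthase, read 1597, 1488 and 1653 in DMSO and 1020.4, 1345 and 1352 in C89 libraries and fell (log2 fold change -0.36, with SE 0.11 and adjusted p = 0.0325). Rrm1, the large reductase subunit gene, and the thymidine kinase gene Tk1 had log2 fold changes of 0.26 (adjusted p = 0.0784) and 0.30 (0.107). They passed without the first DMSO library (Rrm1, 0.0137) or the first C89 library (Tk1, 0.0445). The call of Rrm2 was lost without the second C89 library (0.0564) or with the C89 pair averaged (0.0524), and that of Tyms when DMSO library 1 or 3 or C89 library 1 or 2 was left out (0.0536 to 0.0974). Tyms also has a pseudogene in the annotation.

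The 5 genes of chromatin replication all had log2 fold changes below 0, and 1 passed the test. That of Slbp was only -0.01, and it ranged from -0.12 to 0.10 with 1 library left out. Chaf1a, the large subunit of chromatin assembly factor 1, read 1402, 1239 and 1312 in DMSO and 891.9, 898.2 and 977.2 in C89 libraries. It fell from 1318 ± 81.5 to 922 ± 47.5, with a wide gap between the groups (log2 fold change -0.51, with SE 0.09 and adjusted p = 0.00149). As given above, 52.5% of Chaf1a exon bases are overlapped by Ubxn6 on the opposite strand, so this count is uncertain. The partner gene Chaf1b was at -0.27 (adjusted p = 0.119). Dnmt1, the maintenance DNA methyltransferase gene, did not overlap between groups, at 5145, 5208 and 6690.2 in DMSO and 4372, 4818 and 4752 in C89 libraries (-0.28, adjusted p = 0.0706). It passed with DESeq2 on recovered reads (0.0394), with scaling by total reads (0.00993) and without the first DMSO library (0.045). Uhrf1, which guides Dnmt1 to new DNA, was at -0.18 (0.219) and the histone mRNA binding gene Slbp at -0.01 (0.972). No gene of this group rose with limma, edgeR or DESeq2, and none rose at an unadjusted p under 0.05. With scaling by total reads 4 of the 5 fell.

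Within each group the genes tended to rank the libraries alike. The first C89 library was the lowest of the C89 libraries in 49 of the 54 genes (90.7%), against 38.2% of all genes tested and 42.7% of the better-read genes. The exceptions were E2f3, E2f7, Rb1, Rbl1 and Cdk6. This ranking was not particular to the set. Of 50 other G1/S and replication genes, described below, the first C89 library was the lowest in 36 (72%). In the 54 genes its value was at a median of 83.3% of the mean of the other C89 libraries, against 99.3% over all genes tested. In the control group the second DMSO library was the lowest in 40 of the 54 genes (74.1%), against 28.2% of all genes tested. Reads assigned to genes were 21763459, 17849625 and 17826569 in the DMSO libraries and 17938295, 7772060 and 12479644 in the C89 libraries. The part of depth in these ranks was not tested. Relative to the DMSO mean, the median licensing and helicase gene stood at 75.8% in the first C89 library and at 100% and 99.3% in the other C89 libraries. The median polymerase and clamp gene stood at 70.9, 95.7 and 88.7%. The falls of licensing and polymerase genes were thus deepest in 1 library, and without it 8 of the 54 genes fell and 10 rose. Nucleotide genes stood at 108, 129 and 127%, and cyclin E and kinase genes at 156, 135 and 142%. What set the first C89 library apart was not tested.

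**Figure D4:**
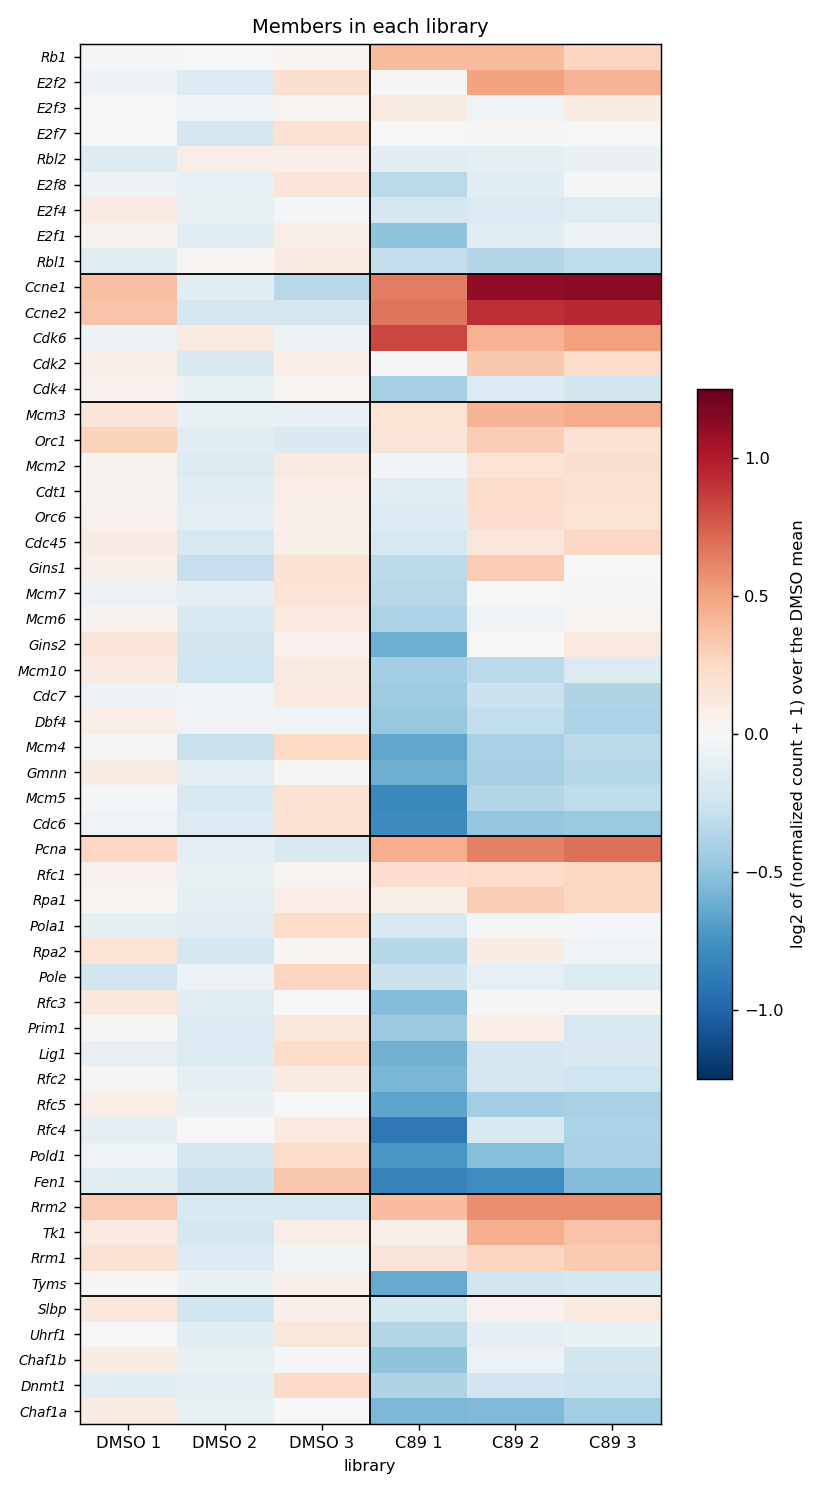
Each of the 54 genes (rows, by role and then by fold change) in each library (columns), as log2 of normalized count + 1 over the DMSO mean. The first C89 column is the lowest of the C89 columns in 49 rows, and Ccne1, Ccne2, Pcna and Rrm2 are also highest in the first of the DMSO columns.

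Of 50 other genes of the G1/S transition and replication, listed with earlier results of these data known, 5 rose and 11 fell, with a median log2 fold change of -0.04. Over all genes tested 12.5% rose and 13.6% fell, and among the better-read genes 19.1% and 20.7%. Chtf18, a subunit of an alternative PCNA loader, read 477.5, 419.9 and 554.1 in DMSO and 134.6, 170.7 and 169.4 in C89 libraries, the deepest fall of that list (log2 fold change -1.61, with SE 0.14 and adjusted p = 2.02e-05). Ticrr, for the origin firing factor treslin, read 967.6, 1252 and 1596 in DMSO and 665.2, 713.3 and 654.9 in C89 libraries (log2 fold change -0.88, adjusted p = 0.00107). Orc5, a core origin recognition subunit gene, fell as well (-0.55, adjusted p = 0.00156). The rises with the lowest p were those of Dck, for deoxycytidine kinase (0.54, adjusted p = 0.00283), of Rpa3, the smallest subunit of the single-strand binding complex (0.51, adjusted p = 0.00509), and of Tfdp1, the dimer partner of E2F factors (0.41, adjusted p = 0.00529). Scaling by total reads gave 20 falls in that list and leaving out the first C89 library 7. There were 3 rises when C89 library 2 or 3 was left out or the pair averaged.

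Genes of the next cell cycle phases are given for comparison. Of 25 G2 and M phase genes, 14 fell and none rose with limma, with 2 higher at an unadjusted p under 0.05, and edgeR and DESeq2 each called 1 higher. The median log2 fold change was -0.35. For the better-read genes the shares were 19.1% rises and 20.7% falls. The centromere gene Cenpf (-0.79, adjusted p = 0.000145), the phosphatase gene Cdc25b (-0.64, 0.000601) and the kinesin gene Kif20a (-0.74, 0.000768) had the lowest p. The median gene of all 25 stood at 79.0, 79.8 and 79.5% of the DMSO mean in the 3 C89 libraries, and the first C89 library was the lowest in 8 of the 25. Whether this list and the replication genes differ was not tested. Among 9 tested genes of D cyclins and CDK inhibitors 3 rose and 1 fell. Cdkn1a, for the CDK inhibitor p21, rose from 3087, 3182 and 2177 in DMSO to 8821, 8485 and 8405 in C89 libraries (log2 fold change 1.63, with SE 0.13 and adjusted p = 9.33e-06). The cyclin genes Ccnd1 (1.14, adjusted p = 0.0148) and Ccnd2 (1.37, 0.0016) rose and the inhibitor gene Cdkn1b fell (-0.77, 0.000485). Ccnd1 has an adjusted p of 0.0667 in the authors' deposited table.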

How the data were processed

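mRNA sequencing libraries, 3 labelled DMSO and 3 treated with C89 for 8 h, were analysed from 1 deposited table of 54232 genes. HISAT2 and DESeq2 are named, without versions or roles, in the submitters' processing notes; build, annotation and counter: not given in the sources used here. The deposited library columns hold a signal, namely reads per gene over a size factor for that library: all 119020 values above 0 (100%) were whole numbers of reads within 0.01 read. The deposited table also holds the authors' log2 fold changes and adjusted p-values, per the file headers. A gene with text in a value was left out, and 6 unnamed columns with values were not used.

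limma 3.58.1 (R 4.3.3) with a mean-variance trend was run on log2(value + 1), without covariates, for the 18954 genes whose mean reached 1, and p-values were adjusted by Benjamini-Hochberg over all of them. edgeR 4.0.16 (4928 genes called) and DESeq2 1.42.0 (4480) on recovered reads were alternatives to limma (4946). Fold changes on this scale understate changes of low genes. The fit was tested on simulated data drawn as independent libraries, so that test does not cover the similar C89 pair. Depth was 17826569 to 21763459 reads in DMSO and 7772060 to 17938295 in C89 libraries. The members and lists were chosen with earlier results of these data known. Named genes were all members, with library values for the called members of lowest p in each role group and for a fixed set, and up to 3 genes each way of other lists. Alternatives covered tool, scaling, low-value filter, pseudocount, a replicate block, each library left out, and the mean of C89 libraries 2 and 3. Exon lengths and overlaps came from GENCODE M21, and figures were drawn with matplotlib 3.10.9. Promoters for Rb1, E2f4, Ccne2, Gmnn, Mcm4, Gins1, Gins2, Rfc2 and Pole were not used here.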

Additional observations from a re-analysis of the deposited data

How the results depend on the processing

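Of 810 comparisons of a member with its value under an alternative, 708 kept direction and side of the threshold, 66 lost a call, 15 gained one and 21 changed sign, all of the last in genes not called. With scaling by total reads, members called higher numbered 5; E2F and pocket genes numbered 0 higher and 3 lower, licensing genes 0 higher, polymerase genes 1 higher, chromatin genes 4 lower and other replication genes 20 lower. Signs then changed for E2f3 (-0.09), E2f7 (-0.14), Cdt1 (-0.05), Cdc45 (-0.08), Orc6 (-0.07), Mcm2 (-0.03) and Gins1 (-0.14). Over all genes it called 5604, 27% of them higher in place of 47.8%. With no filter on low values, cyclin E and kinase genes numbered 0 lower and polymerase genes 1 higher. With C89 libraries 2 and 3 averaged, 3296 genes and 5 higher members were called; E2F and pocket genes numbered 0 lower, kinase genes 0 lower, licensing genes 0 higher, polymerase genes 1 higher and 3 lower, nucleotide genes 0 higher and other replication genes 3 higher, and Gins1 was at -0.07. DESeq2 gave 2 lower chromatin genes and 1 higher G2 and M gene, edgeR 1 higher G2 and M gene and Gins1 at -0.00, and a mean of at least 10 likewise 1 higher G2 and M gene.

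With the replicate number as a block, 6 members rose and 12 fell; E2F and pocket genes numbered 0 lower, kinase genes 0 lower, licensing genes 0 higher and polymerase genes 1 higher, of 4092 genes called. Deviations of same-numbered libraries correlated at -0.189, -0.178 and 0.023 over 10483 genes, and 0 of 6 libraries lay closest to their own number. As deviations were taken from group means of only 3 libraries, these values cannot decide whether same-numbered libraries were paired.

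Leaving out 1 library gave 3139 to 4752 genes called, 4 to 10 members higher and 7 to 14 lower. By group, E2F and pocket genes numbered 0 to 2 higher and 0 to 1 lower, kinase genes 0 to 1 lower, licensing genes 0 to 2 higher, polymerase genes 1 to 2 higher and 2 to 4 lower, nucleotide genes 0 to 2 higher and 0 to 1 lower, and chromatin genes 1 to 2 lower. Other replication genes numbered 3 to 6 higher and 7 to 11 lower, G2 and M genes 0 to 2 higher, and D cyclin and inhibitor genes 1 to 3 lower. Log2 fold changes of genes that changed sign ranged from -0.09 to 0.10 for E2f7, -0.02 to 0.21 for Cdc45, -0.22 to 0.00 for Mcm6, -0.15 to 0.17 for Gins1, -0.29 to 0.08 for Gins2, -0.13 to 0.05 for Pola1, -0.20 to 0.03 for Rpa2 and -0.12 to 0.10 for Slbp. The cause was not tested. Fen1 had the lowest mean of the members, 70.3 normalized counts, and so the fewest reads behind its value.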
